A study of Mus musculus with 13 samples.

Results

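Gata4, Gata6, Sox17, Foxa2, T, Gsc and Mixl1, 7 transcription factor genes that drive mesoderm and endoderm formation, were followed across peak lists of 2 repressive histone marks in mouse embryonic stem cells. The genes were chosen for their developmental role, and each was given 1 fixed window on mouse build mm9, so the set is 7 windows of 490 kb in all. Cells of the J1 line carried an inducible knockout of Setdb1, an H3K9 methyltransferase, and this genotype was shared by every sample. Chromatin immunoprecipitation and sequencing gave lists for H3K27me3 in untreated cells (n = 2), H3K27me3 in cells given 2.5 µM tamoxifen to remove Setdb1 (n = 2), and H3K9me3 in untreated cells (n = 4). DMSO, the solvent of tamoxifen, is named as the control, and the duration of treatment is not given in the sources used here. Not analysed here were the 5 inputs and any H3K9me3 library with tamoxifen. Lists of positions hold no transcript, so neither the loss of Setdb1 nor the identity of the cells by marker genes could be checked. Replicate 1 of every group was called with MACS2 2.0.10 and all other replicates with MACS2 2.1.0. Read depth is unknown, and the H3K27me3 lists differed in length (7041 and 17094 peaks untreated, 15116 and 22265 with tamoxifen). H3K9me3 replicate 4 has no antibody named in its labels, and its title was followed.

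H3K27me3 is written by Polycomb repressive complex 2 and marks genes held silent. In embryonic stem cells it lies over CpG-rich starts of lineage regulators, which are repressed until differentiation. H3K9me3, the mark that Setdb1 writes, is known mainly at endogenous retroviruses and in heterochromatin. Gata4 and Gata6 are zinc finger factors of primitive endoderm and heart, Sox17 is an HMG-box factor of endoderm, and Foxa2 is a forkhead pioneer factor of endoderm, node and notochord. T (Brachyury) is the T-box factor of the primitive streak, Gsc a homeobox factor of the organiser, and Mixl1 a homeobox factor of the primitive streak.

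RefSeq promoters were matched by symbol for Foxa2, T and Gsc. Their sequences are shown because CpG-rich starts are where H3K27me3 is known to lie in these cells. Each runs from 250 bases before to 50 after a start, 5′ to 3′ on the gene's strand, with every CpG in capitals. They follow build GRCm38.p6, not mm9, so their place within the domains below was not determined. Of 3 Foxa2 starts, the one richest in CpG is shown (minus strand).
Foxa2, chr2:148045899-148046198: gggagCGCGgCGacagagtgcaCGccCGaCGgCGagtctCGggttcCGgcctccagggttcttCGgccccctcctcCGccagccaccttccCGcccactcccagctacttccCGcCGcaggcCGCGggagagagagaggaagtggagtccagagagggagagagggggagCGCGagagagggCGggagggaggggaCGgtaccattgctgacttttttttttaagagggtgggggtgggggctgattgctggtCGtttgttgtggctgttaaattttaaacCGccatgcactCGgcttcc
T, chr17:8434173-8434472: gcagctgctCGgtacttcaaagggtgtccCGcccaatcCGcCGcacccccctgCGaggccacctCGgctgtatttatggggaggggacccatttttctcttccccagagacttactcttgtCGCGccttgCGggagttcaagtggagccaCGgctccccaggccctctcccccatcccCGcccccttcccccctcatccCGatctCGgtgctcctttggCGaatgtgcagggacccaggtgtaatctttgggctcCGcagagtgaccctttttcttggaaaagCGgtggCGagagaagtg
Gsc, chr12:104473187-104473486: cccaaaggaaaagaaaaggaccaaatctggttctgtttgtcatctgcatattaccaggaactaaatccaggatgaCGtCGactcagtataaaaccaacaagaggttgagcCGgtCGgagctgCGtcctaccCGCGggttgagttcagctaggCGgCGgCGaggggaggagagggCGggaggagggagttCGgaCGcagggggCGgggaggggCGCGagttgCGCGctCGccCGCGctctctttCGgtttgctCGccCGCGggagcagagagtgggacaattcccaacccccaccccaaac
T lies on the plus strand and Gsc on the minus strand. The Gsc promoter held 25 CpG, the Foxa2 promoter shown 23 and the T promoter 17, against a median of 7 over 32851 promoters of the same length. The other Foxa2 starts held 12 and 13. All 5 were thus above the median of the table, though only 60.4% to 81.6% of its promoters held fewer CpG. The ratio of observed to expected CpG was 0.548 to 0.934, with a median of 0.384 over the table.

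H3K27me3 peaks lay in all 7 windows. Touching or overlapping peaks of the 4 H3K27me3 lists were merged into regions, and the region with the most bases in a window is called the main domain of that gene. Every main domain was held by all 4 lists and lay inside its window. The series had 31723 merged H3K27me3 regions, of which 4841 were held by all 4 lists. Foxa2 had the widest main domain of the 7, on chromosome 2 from 147852901 to 147878673 (25773 bp, rank 53 of the 4841 by width). Gata4 followed at 17503 bp (chromosome 14, 63856624 to 63874126, rank 154) and Gata6 at 16615 bp (chromosome 18, 11045134 to 11061748, rank 171). The T domain measured 13737 bp (chromosome 17, 8618613 to 8632349) and the Sox17 domain 13324 bp (chromosome 1, 4477607 to 4490930). The Gsc domain spanned 12186 bp (chromosome 12, 105704947 to 105717132). Mixl1 had the narrowest at 5627 bp (chromosome 1, 182624728 to 182630354, rank 1773). Thus 6 of the 7 domains were 10 kb or wider, a class of 497 regions, and the median of all 4841 was 4639 bp. Choosing the region with the most bases in a window favours wide regions, and the 4841 were not chosen that way. The ranks and widths therefore describe these domains and are not a test of them. No annotation of mm9 was used here, so exons and start sites were not placed on these domains.

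**Figure D1:**
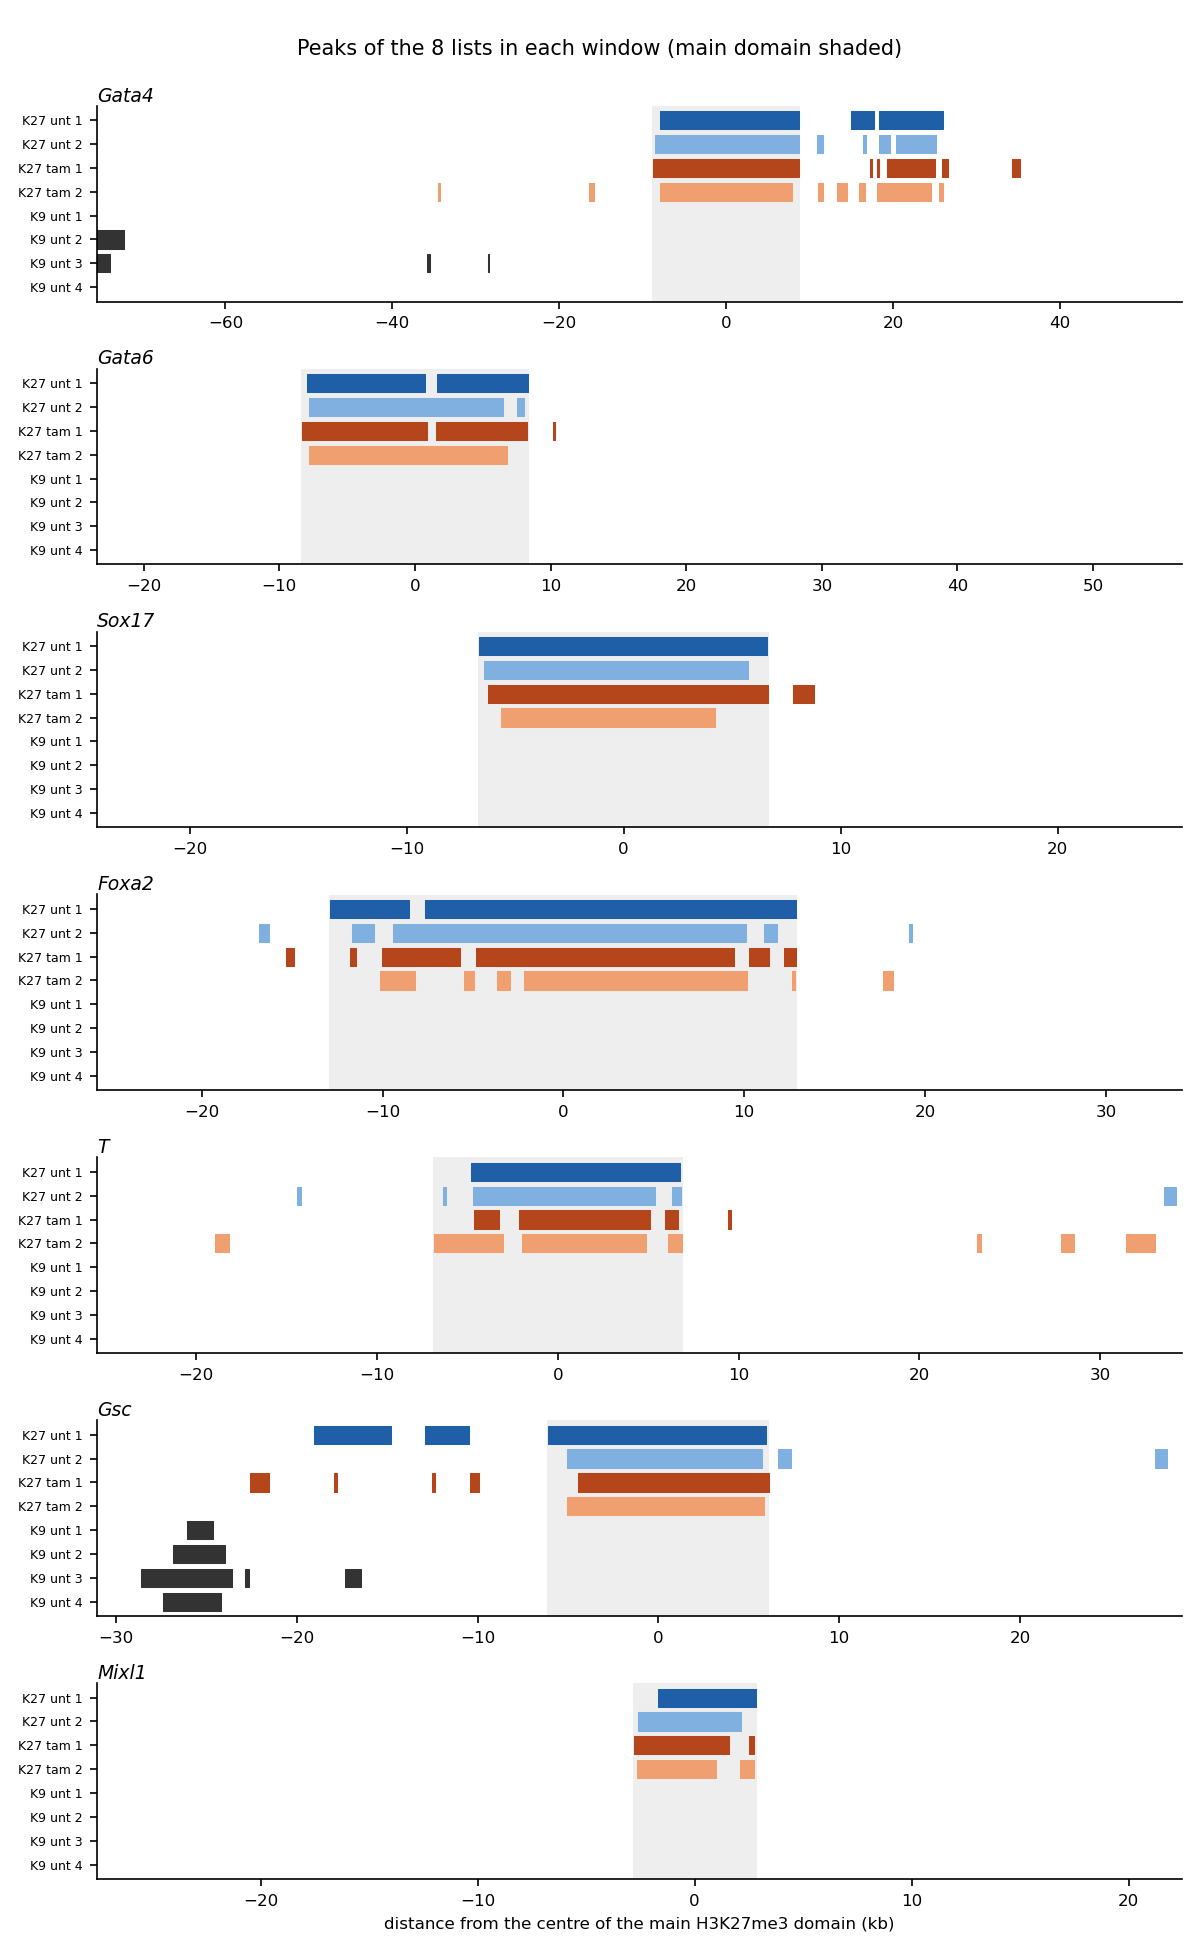
Peaks of the 8 lists in the window of each gene, with distance from the centre of the main H3K27me3 domain in kb on the horizontal axis and 1 row per library (K27, H3K27me3; K9, H3K9me3; unt, untreated; tam, tamoxifen; the digit is the replicate). Grey shading is the main domain; all 4 H3K27me3 lists fill most of it, and H3K9me3 peaks fall in the windows of Gata4 and Gsc only and outside the shading.

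Cover, the percentage of the main domain that lay in peaks of 1 library, ranged from 61.1% to 99.6%. Domains were merged from these same peaks, which by itself raises cover. Median cover of the 7 was 94.8% and 88.4% in untreated replicates 1 and 2, and 86.3% and 83.2% in tamoxifen replicates 1 and 2. Over regions of 10 kb or wider the medians were 91.2%, 86.2%, 76.9% and 84.0% in the same order. The next question was whether tamoxifen changed the cover. Over the 7 domains together, 93.7% and 87.9% of 104.8 kb were covered in the untreated replicates 1 and 2, and 87.2% and 78.8% in the tamoxifen replicates 1 and 2. Foxa2, the widest domain at 25773 bp, weighs most in these sums, and it was the only gene whose states did not overlap. No such sum was made over other regions. Foxa2 and Sox17 were less covered with tamoxifen within both MACS2 versions, which is 2 of 7, and no gene was more covered within both. The same call was made for 39.5% of the 4841 regions and for 56.7% of those 10 kb or wider. In that wide class it was 2 of 6 genes. A count of 2 in 7 is therefore not above the background. Within MACS2 2.0.10 alone 4 of 7 were less covered, against 78.0% of all regions, and 4 of the 6 wide domains, against 87.1%. Within MACS2 2.1.0 alone it was 5 of 7, against 49.9%, and 4 of the 6 wide domains, against 63.2%. The median difference over the 7 (tamoxifen minus untreated group mean) was -5.43 percentage points, beside -7.37 over all 4841 regions and -6.94 over the wide ones. With 2 libraries a state, the two-sided exact permutation test cannot give a p below 0.333, so no gene could pass the usual threshold. Nothing in the labels says that libraries came from separate cultures, so these tests measure only the spread between libraries. A list cannot tell fewer cells with the mark from less mark per cell.

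**Figure D2:**
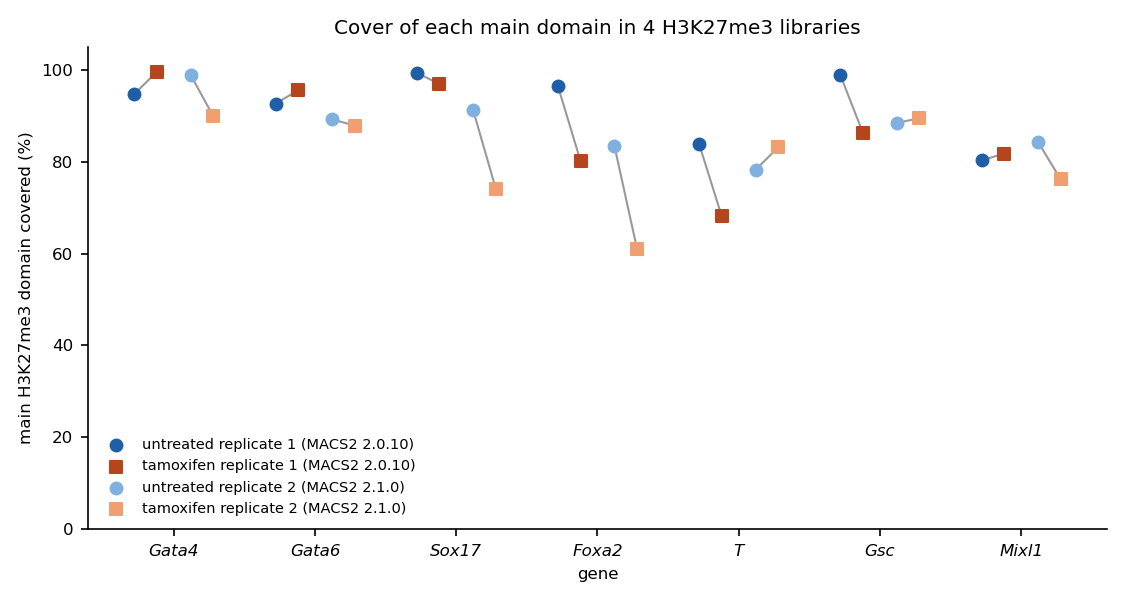
Percentage of the main H3K27me3 domain covered by peaks, per gene and library; circles are untreated and squares tamoxifen libraries, and a line joins the libraries of 1 MACS2 version. Foxa2 shows both squares (80.2% and 61.1%) below both circles (96.5% and 83.4%), and in the other 6 genes the states overlap.

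Foxa2 gave the largest difference of the 7. Untreated libraries covered 96.5% and 83.4% of its domain and tamoxifen libraries 80.2% and 61.1%. Both tamoxifen values lay below both untreated ones, at 70.6% ± 13.5 against 89.9% ± 9.21 (SD, n = 2 each), a difference of -19.3 percentage points (exact permutation p = 0.333, the smallest possible). Foxa2 alone had states that did not overlap, 1 of 7 and 1 of the 6 wide domains. Both tamoxifen libraries lay below both untreated ones in 23.8% of all 4841 regions and 33.8% of the wide ones. The difference was -16.3 points within MACS2 2.0.10 and -22.4 within MACS2 2.1.0. Peaks anywhere in the Foxa2 window covered 24.9 and 22.2 kb untreated and 21.1 and 16.3 kb with tamoxifen, so peaks outside the domain did not make up the difference.

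Sox17 was covered over 99.4% and 91.2% untreated and 96.9% and 74.1% with tamoxifen. Its domain was a single peak in each list, and the states overlapped because tamoxifen replicate 1 lay above untreated replicate 2. The difference of -9.76 points (exact permutation p = 0.667) rested on tamoxifen replicate 2, and without that library it was 1.63. In that library the Sox17 peak began 999 bp after the start of the domain and ended 2447 bp before its end, so it was short at both sides.

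The Gata4 domain was covered over 94.8% and 98.9% untreated and 99.6% and 89.9% with tamoxifen. The highest and the lowest of these values were both tamoxifen libraries (difference -2.09 points, exact permutation p = 1). Without tamoxifen replicate 2 the difference was 2.77. Gata6 was covered over 92.6% and 89.3% untreated and 95.6% and 87.9% with tamoxifen, again with tamoxifen at both extremes (difference 0.797 points, exact permutation p = 1). Without tamoxifen replicate 1 the Gata6 difference was -3.06, and without untreated replicate 2 it was -0.891. For both GATA factors the values were higher with tamoxifen within MACS2 2.0.10, by 4.82 and 2.97 points, and lower within MACS2 2.1.0, at -8.99 and -1.37.

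T was covered over 83.9% and 78.3% untreated and 68.1% and 83.2% with tamoxifen. Tamoxifen replicate 1 was the lowest and tamoxifen replicate 2 lay between the untreated libraries (difference -5.43 points, exact permutation p = 0.667). Without tamoxifen replicate 1 the difference was 2.097. Measured over the whole T window, tamoxifen libraries covered 9.53 and 14.8 kb and untreated ones 11.5 and 11.6 kb, and the difference of the means then had the opposite sign, at 0.595 kb.

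Gsc was covered over 98.9% and 88.4% untreated and 86.3% and 89.5% with tamoxifen. Untreated replicate 1 was high and the other 3 libraries lay close together (difference -5.75 points, exact permutation p = 0.667). Without untreated replicate 1 the difference was -0.546. Mixl1 was covered over 80.3% and 84.3% untreated and 81.8% and 76.2% with tamoxifen. Its states overlapped (difference -3.30 points, exact permutation p = 0.667), and the difference was 1.51 within MACS2 2.0.10 and -8.10 within MACS2 2.1.0.

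**Figure D3:**
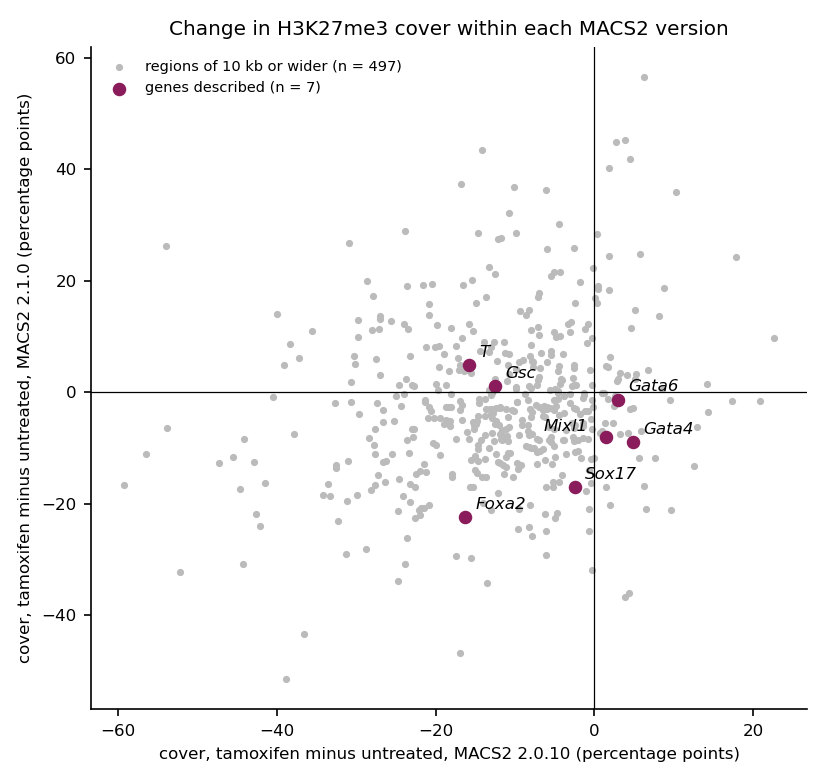
Difference in cover (tamoxifen minus untreated, percentage points) within MACS2 2.0.10 on the horizontal axis and within MACS2 2.1.0 on the vertical axis; grey points are the 497 H3K27me3 regions of 10 kb or wider held by all 4 lists, and purple points the 7 genes. Foxa2 and Sox17 lie in the lower left, and the other 5 genes have opposite signs in the versions.

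The number of pieces, meaning separate peaks of 1 library within a domain, was compared next. Foxa2 was in 2 and 3 pieces untreated and in 5 and 5 with tamoxifen. Mixl1 was 1 piece in both untreated lists and 2 in both tamoxifen lists. These 2 of 7 genes had more pieces with tamoxifen within both MACS2 versions, a call made for 6.63% of all 4841 regions. Among domains of 10 kb or wider it was 1 of 6 (Foxa2), against 25.4% of the wide regions. T was in 1 and 3 pieces untreated and in 3 and 3 with tamoxifen, so its replicate 2 libraries did not differ. Gata6 was in 2 and 2 pieces untreated and in 2 and 1 with tamoxifen. Gata4, Sox17 and Gsc were a single peak in all 4 lists. Untreated replicate 1, to which tamoxifen replicate 1 is compared within MACS2 2.0.10, had wider peaks genome-wide (median 2511 bp) than untreated replicate 2 (784 bp) and the tamoxifen lists (729 and 727 bp). The part of this peak width in the pieces and cover of these genes was not tested. Wider regions have room for more pieces, and the Mixl1 domain was under 10 kb. With the 7041 widest peaks of each list, 1 gene in place of 2 had more pieces within both versions. The second Mixl1 piece in tamoxifen replicate 1 was 200 bp wide, after a break of 927 bp. With a 500 bp minimum, or with pieces within 1 kb joined, Mixl1 was therefore not called. T was called in its place, so the count was again 2 under both settings.

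Several breaks in the tamoxifen lists fell at the same place. In the T domain, 902 bp from 8622429 to 8623330 lay in peaks of both untreated lists and in a break of both tamoxifen lists. A second break of T, from 8630579 to 8631383, was also shared by both tamoxifen lists, but 504 of its 805 bp lay in a break of untreated replicate 2 as well. In the Mixl1 domain the stretch from 182629131 to 182629628 (498 bp) was covered in both untreated lists and in neither tamoxifen list. In Foxa2 there were 4 such stretches, and the longest (997 bp, 147854295 to 147855291) lay near the domain's lower coordinate edge. That one was a break in tamoxifen replicate 1 only, because the first peak of tamoxifen replicate 2 began later, at 147855668. The other stretches measured 455, 226 and 107 bp and lay in breaks of both tamoxifen lists. In Gata6, untreated and tamoxifen replicate 1 shared a break of 693 bp from 11054315 to 11055007 that the replicate 2 lists lacked. The other Gata6 break, of 1035 bp from 11059923 to 11060957, lay between peaks in untreated replicate 2 alone. The single peak of tamoxifen replicate 2 ended inside it, at 11060216, and left its last 741 bp uncovered as well.

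Bases in both untreated lists and in no tamoxifen list made up 8.85% of the Mixl1 domain, 8.76% of the T domain and 6.93% of the Foxa2 domain. They made up 1.22% for Sox17, 0.229% for Gata4 and none of the Gata6 and Gsc domains. The median share was 1.22% over the 7, beside 0% over all 4841 regions and 1.36% over the wide ones. Some such bases were held by 5 of 7 domains, where 45.6% of all 4841 regions did. Among domains of 10 kb or wider it was 4 of 6, against 65.6% of the wide regions. The reverse class, in both tamoxifen lists and no untreated one, was found in Mixl1 alone, at 46 bp. How many of the 4841 regions held such bases was not counted. Their median share of a region was 0% over all 4841 and over the wide ones. Bases in all 4 lists were 89.7% of the Gata4 domain, 83.4% of Gsc, 80.8% of Gata6, 74.1% of Sox17 and 62.2% of T. They were 51.5% of Foxa2 and 47.5% of Mixl1, with a median of 74.1% over the 7, beside 39.9% over all 4841 regions and 60.9% over the wide ones. By this share of bases Gata4 ranked highest of the 7 and Mixl1 lowest.

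Outside the main domains, 26 further H3K27me3 regions lay in the windows, and 21 of them were in a single list. Gata4 had a second domain held by all 4 lists, 8520 bp wide (63883404 to 63891923) and 9277 bp beyond the main one. It was covered over 89.6% and 72.6% untreated and 77.4% and 83.0% with tamoxifen, and the states overlapped. Between both lay a region of 2821 bp that untreated replicate 1 covered in full, while the other lists covered 5.18% to 26.2%. Gsc had a flank that 1 library called almost alone. Regions of 4305 and 2441 bp (105691975 to 105696279 and 105698140 to 105700580) were covered in full by untreated replicate 1. Tamoxifen replicate 1 covered 3.51% and 8.52% of them, and both replicate 2 lists had no peak there. Over the Gsc window, untreated replicate 1 thus covered 18.8 kb and the other 3 lists 10.9 to 12.5 kb. In the T window, tamoxifen replicate 2 had 4 peaks away from the main domain that no other list held, the widest at 1644 bp.

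H3K9me3 lists of untreated cells had 1, 2, 6 and 1 peaks in these windows in replicates 1 to 4. None of the 7 main domains overlapped a peak of any H3K9me3 library, where 5.80% of the 4841 regions and 10.3% of the wide ones did. A count of 0 in 7 is near these shares. Windows of Gsc and Gata4 held H3K9me3 peaks and those of the other 5 genes held none in any library. This count depends on the window edges and has no background, because other windows were not counted. At T, a replicate 3 peak (8599135 to 8599591) ended just before the window. The median distance to a peak of any H3K9me3 library was 45.0 kb over the 7 domains. It was 24.7 kb over all 4841 regions and 25.7 kb over the wide ones. At Gsc all 4 libraries had a peak before the domain, and together they formed a region of 5006 bp (105682445 to 105687450) that ended 17.5 kb from it. Of all 4841 regions, 90.4% were farther than that from H3K9me3 found in all 4 libraries, so Gsc was on the near side of the distribution. At Gata4, replicates 2 and 3 had peaks at the edge of the window that ran past it, replicate 3 had 2 further peaks of 277 and 183 bp inside it, and replicates 1 and 4 had none.

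One place held peaks of both marks. A peak of 907 bp in H3K9me3 replicate 3 (105693715 to 105694621) lay wholly within the flank of Gsc that H3K27me3 untreated replicate 1 called. Each mark was there in 1 untreated library alone, 1 of 4 for H3K9me3 and 1 of 2 for H3K27me3. Elsewhere in the Gsc window, before that flank, a tamoxifen replicate 1 peak of H3K27me3 (105688436 to 105689501) began 52 bp after another H3K9me3 replicate 3 peak of 190 bp. In none of the other 6 windows did peaks of the marks overlap.

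The distance from each domain to the nearest H3K9me3 peak was 45.0 to 46.8 kb in the 4 libraries at Sox17 and 70.6 to 72.2 kb at Mixl1, so the libraries placed it alike there. At T it was 202.3 and 209.8 kb in replicates 1 and 2 and 19.0 and 19.2 kb in replicates 3 and 4. At Foxa2 it was 357.0 kb in replicate 1 and 109.8 to 114.4 kb in the others. Gata6 gave 79.0 kb in replicate 3 and 164.2 to 187.0 kb in the others, and Gata4 207.0 kb in replicate 1, 63.4 and 67.7 kb in replicates 2 and 4, and 19.6 kb in replicate 3. To H3K9me3 regions of all 4 libraries, Foxa2 was the farthest of the 7 at 357.0 kb, and 19.7% of the 4841 regions were farther still. The median over the 7 was 202.3 kb, beside 135.8 kb over all 4841 regions (middle 50%, 53.3 to 291.1 kb). In order of that distance, Gsc was followed by Sox17, Mixl1, T, Gata4, Gata6 and Foxa2. The values of T, Gata4 and Gata6, at 202.3, 206.8 and 222.0 kb, differed by less than the spread between single libraries.

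**Figure D4:**
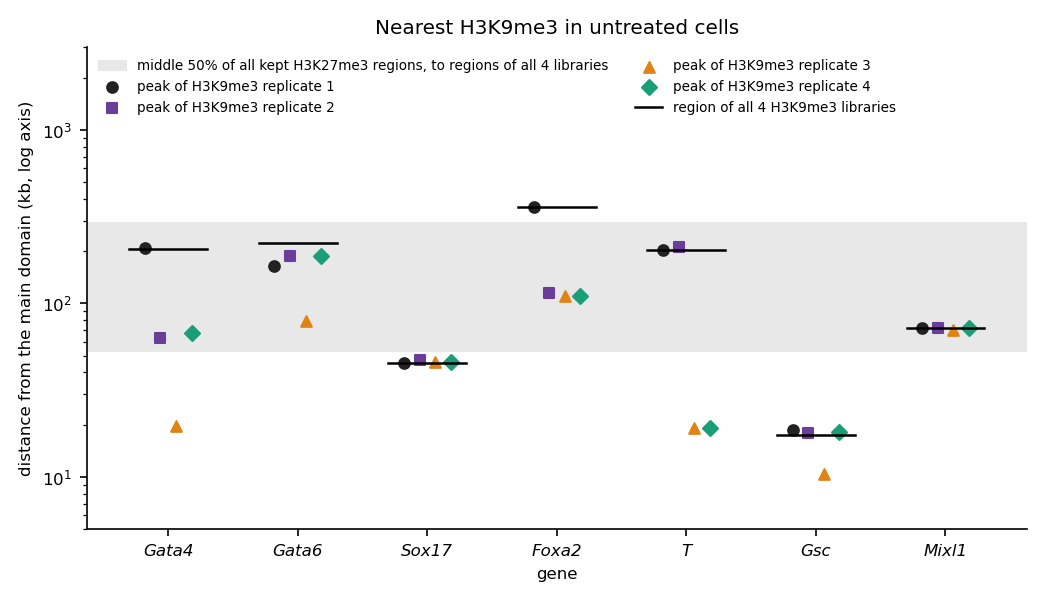
Distance in kb (log axis) from the main H3K27me3 domain of each gene to the nearest H3K9me3 peak of each untreated library (symbols) and to the nearest region of all 4 H3K9me3 libraries (lines); the grey band holds the middle 50% of the latter over the 4841 H3K27me3 regions held by all 4 lists. Gsc (17.5 kb) and Sox17 (45.0 kb) lie below the band and Foxa2 (357.0 kb) above it.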

How the data were processed

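The authors deposited 1 list per library with chromosome, start and end of each peak, and no height, p-value or read count. Bowtie 0.12.7, MACS2 and build mm9 are named, per the submitters' processing notes, with MACS2 version 2.0.10 for replicate 1 of each group and 2.1.0 for the others. The sources used here do not give the mode, threshold or control of the calls. Groups came from the titles, and libraries without a number were numbered 1. No pair of lists shared more than 1 identical peak. Positions are printed counting from 1, and an overlap needed 1 bp.

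The members and lists were chosen with earlier results of these data known, and all 7 genes are described. The counts of bases and breaks shared by the tamoxifen lists, and the split by MACS2 version of single genes, were added with the values in view. Means of the states were tested with two-sided exact permutation of the libraries. The code was tested on 200 simulated regions, and cover and pieces were recovered in all 200. Python 3.11.15, NumPy 2.4.6, pandas 2.3.3 and Matplotlib 3.10.9 were used. Alternatives changed merging, minimum width, list length, denominator and libraries. Gene symbols and promoters are RefSeq's (GRCm38.p6), used for names and sequence only.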

Additional observations from a re-analysis of the deposited data

Results flagged for a closer look

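In 3 of 9 groups of the 4 H3K9me3 libraries, 1 value stood apart by Dixon's criterion, which flags about 1 group in 20 by chance. The distance from the Foxa2 domain to the nearest H3K9me3 peak was 357.0 kb in replicate 1, against 109.8 to 114.4 kb in the others. From the Gsc domain it was 10.3 kb in replicate 3, against 17.9 to 18.5 kb. From the Mixl1 domain it was 70.6 kb in replicate 3, where the peak lay on the other side of the domain, against 72.1 to 72.2 kb. Replicate 1 had the shortest H3K9me3 list (18037 peaks) and replicate 3 the longest (42725), and the part of list length in these distances was not tested.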

How the results depend on the processing

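Of 63 differences in cover recomputed under an alternative, 57 kept their direction and 6 reversed. Alternatives changed merging (within 1 kb), peak width (at least 500 bp), list length (equal numbers of widest peaks) or the denominator (the whole window). Others left out each library or used the replicate block. The replicate block has the same mean difference by construction, so it could not reverse a direction. Merging within 1 kb left every value but that of Gsc unchanged. The 500 bp minimum and the widest peaks also left some values unchanged, those of Gata4, Sox17 and Gsc under both. All such repeats of the main value count among the 57. Of the 28 differences with 1 library left out, 23 kept their direction and 5 reversed. Foxa2, Gsc and Mixl1 stayed below 0 under all of these alternatives, from -28.9 to -8.04, -11.0 to -0.546 and -11.0 to -0.371 points. Single MACS2 versions were not among these alternatives. Gsc was 1.07 within MACS2 2.1.0 and Mixl1 1.51 within MACS2 2.0.10, whereas Foxa2 and Sox17 were below 0 within both. T reversed over the whole window, at 0.992. Leaving out each library gave -6.94 to 2.77 for Gata4, -3.06 to 4.66 for Gata6, -21.2 to 1.63 for Sox17 and -13.0 to 2.097 for T. The number of genes less covered within both MACS2 versions was 2, and 3 with merging, the 500 bp minimum or the widest peaks. It was 4 within the first version alone and 5 within the second, and by group means without each library 4 to 7, where by construction only 1 condition must hold. More pieces were found in 1 to 3 genes, with 1 under equal numbers of widest peaks. With the 500 bp minimum, or with pieces within 1 kb joined, these were Foxa2 and T, not Foxa2 and Mixl1. H3K9me3 in all 4 libraries was in 1 window, not 2. With the replicate block, the Foxa2 difference stayed -19.3 with an exact sign-flip p = 0.5, the smallest that 2 pairs allow, and no call changed. The numbers are not labelled as pairs. Across the 4841 regions, deviations of same-numbered libraries correlated at r = 0.352, and at 0.613 across the 497 of 10 kb or wider, as a description, and each number goes with 1 MACS2 version. Causes of these changes were not tested.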
